A study of Homo sapiens with 6 samples.

Results

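The transforming growth factor beta (TGF-beta) pathway was followed through 9 genes in DLD-1, an established line grown out of a human colorectal cancer, after transfection with an siRNA against lncSLCC1 or with a control siRNA. Each group held 3 RNA-seq libraries of total RNA. lncSLCC1, a long non-coding RNA, carries the symbol RP11-400N13.2 in the deposited counts. Both groups were thus transfected, and all 6 libraries come from the same cell line. Values of single libraries are listed in the order of replicates 1, 2 and 3. The genes were taken by symbol: the ligand gene TGFB1, the receptor genes TGFBR1 and TGFBR2, the signal-carrying SMAD2, SMAD3 and SMAD4, the inhibitory SMAD6 and SMAD7, and SKIL. All 9 were found among the 56638 symbols listed and all 9 passed the filter on low counts, which left 15242 tested genes. Whether replicates are separate cultures is not in the labels, so each p-value measures only the spread of these libraries, which may be technical. In bulk RNA, fewer cells that express a gene and less of its RNA per cell cannot be told apart.

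TGF-beta ligands bind a type II receptor, encoded by TGFBR2, which then phosphorylates the type I receptor encoded by TGFBR1. The type I receptor phosphorylates SMAD2 and SMAD3, which join SMAD4 and enter the nucleus to act on target genes. SMAD7 and SKIL are themselves targets and damp the signal, SMAD7 at the receptors and SKIL at the SMAD complex on DNA, while SMAD6 mainly restrains the related bone morphogenetic protein (BMP) branch. In normal intestinal epithelium the pathway restrains growth. In colorectal cancers that have lost DNA mismatch repair, which DLD-1 cells have lost, a run of adenines in the coding sequence of TGFBR2 is a well-known site of frameshift mutation.

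That run is shown because a read count per gene carries no information on reading frame, so the levels of TGFBR2 below do not say what receptor is made. In the coding sequence of GENCODE release 29, the longest run of A in TGFBR2 was 10 bases and started at base 449, counted from the start codon. The longest runs in the other 8 genes were 4 to 7 bases, and a run of 10 or more was present in 63 of 19652 protein-coding genes, or 0.321%. The reference stretches around the longest run of TGFBR2 and, for comparison, of SKIL, the next longest, read 5′ to 3′ with the run in capitals. These are reference sequences, not sequences of DLD-1 cells.
TGFBR2: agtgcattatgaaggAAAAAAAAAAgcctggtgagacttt
SKIL: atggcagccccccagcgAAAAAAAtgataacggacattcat

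The 6 libraries held 12572277 to 15262872 gene reads after lncSLCC1 siRNA and 14873343 to 15568075 after control siRNA. The targeted RNA fell to 27.1% of control: RP11-400N13.2 averaged 2.12 ± 0.478 CPM (read counts scaled for depth, on TMM library sizes) after lncSLCC1 siRNA and 7.83 ± 2.296 CPM after control siRNA (SD, n = 3 each). Its log2 fold change was -1.88 (SE 0.264, adjusted p = 0.0027 by edgeR's quasi-likelihood test with Benjamini-Hochberg adjustment over all tested genes). Of 10 colorectal epithelial markers 9 averaged at least 1 CPM, CEACAM5 being the exception, and the 10 summed to 5890 to 6220 CPM after lncSLCC1 siRNA and 5790 to 7210 CPM after control siRNA. Of 8 fibroblast markers, only COL1A1 averaged 1 CPM or more, PDGFRA, DCN and LUM were at 0 reads in every library, and the 8 summed to 3.12 to 3.27 CPM after lncSLCC1 siRNA and 2.27 to 2.79 CPM after control siRNA, a difference whose part in the results was not tested. The markers VIL1 (epithelium; log2 fold change 0.87, edgeR adjusted p = 0.00618) and PDGFRB (fibroblasts; 1.28, 0.0448) were called higher. The controls were the more scattered group: the chi-square statistic per gene between replicates ran from 1.79 to 1.902 for lncSLCC1 siRNA and from 5.46 to 28.0 for control siRNA, and control replicate 1 stood farthest from the others.

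Among the 9 genes, SMAD3 and TGFB1 were lower after lncSLCC1 siRNA, 0 were higher, and 7 did not pass the test at an adjusted p of 0.05. Over all tested genes 7.39% were called lower and 6.46% higher, so that 46.6% of calls were higher, against 63.7% with library totals in place of TMM. DESeq2 and limma-voom also called 0 of the 9 higher. An unadjusted p under 0.05 was reached by 3 of the 9, against 31.6% of all tested genes. The groups did not overlap for 3 of the 9 genes, with SMAD3 and TGFB1 lower and SKIL higher, against 19.6% of all tested genes lower and 19.4% higher, 39.0% in all. The median log2 fold change of the 9 genes was -0.03, and that of all tested genes was 0.0072.

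**Figure D1:**
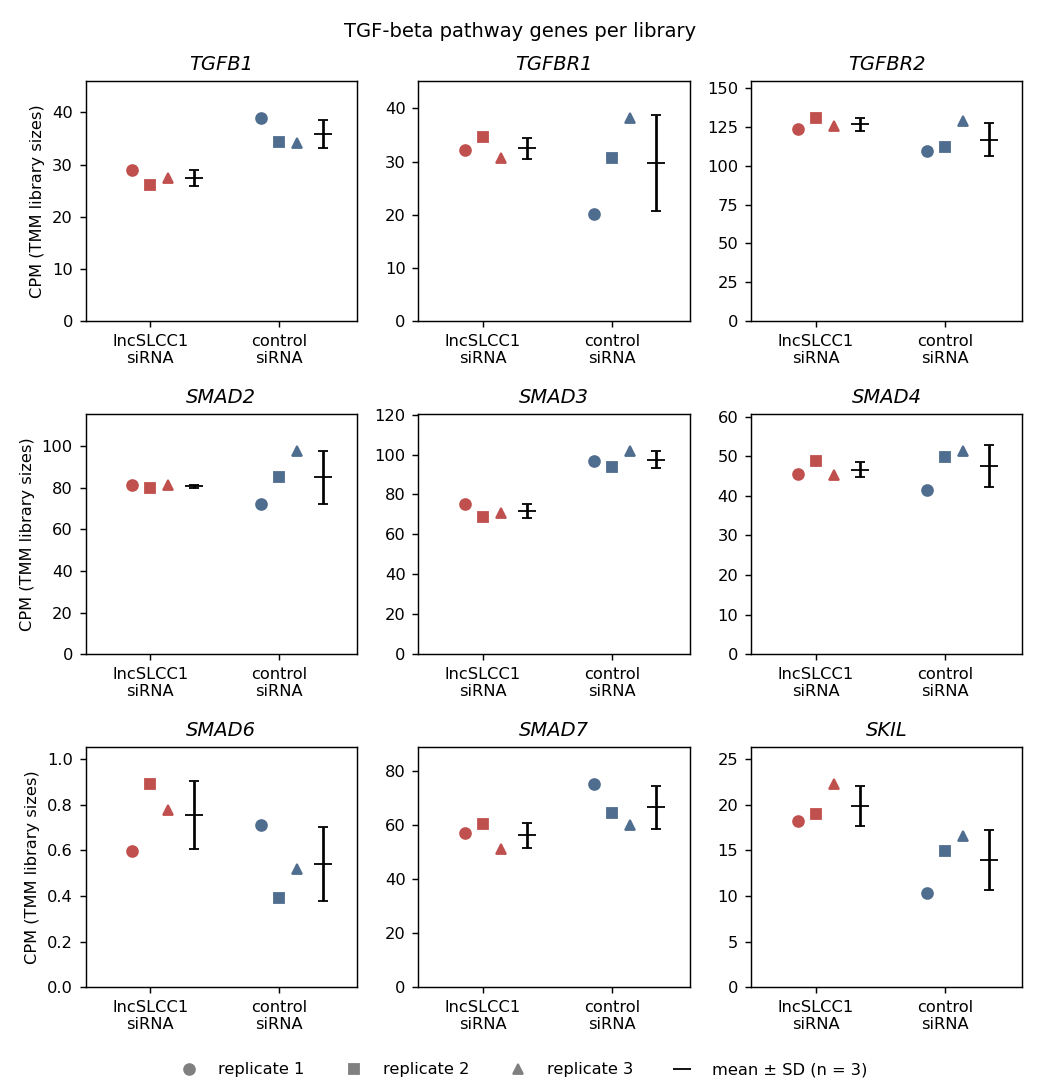
CPM on TMM library sizes of the 9 genes in each library, with lncSLCC1 siRNA in red on the left and control siRNA in blue on the right, a symbol per replicate and the mean ± SD of 3 libraries in black. SMAD3 and TGFB1 have all 3 lncSLCC1 siRNA points below the controls, SKIL has them above, and the other 6 genes overlap.

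TGFB1 encodes the ligand that gives the pathway its name. It stood at 29.04, 26.01 and 27.5 CPM with lncSLCC1 siRNA, against 39.01, 34.4 and 34.2 CPM with control siRNA. Every lncSLCC1 siRNA library was below every control, and control replicate 1 was the highest of the 6. The mean was 27.5 ± 1.52 CPM after lncSLCC1 siRNA and 35.9 ± 2.73 CPM after control siRNA (SD, n = 3 each), that is, 76.7% of control. TGFB1 fell by 0.38 on the log2 scale (SE 0.102, 95% confidence interval -0.61 to -0.16, edgeR adjusted p = 0.0362). The call was lost with library totals in place of TMM (log2 fold change -0.31, edgeR adjusted p = 0.0507), and on leaving out lncSLCC1 siRNA replicate 1 (-0.43, 0.103), 2 (-0.34, 0.175) or 3 (-0.38, 0.141), or control replicate 2 (-0.41, 0.0935). GENCODE release 29 places HNRNPUL1, CCDC97 and TMEM91 over parts of TGFB1 on the opposite strand, with 4955 to 6396, 884 to 1232 and 27 to 52 reads per library, and no strand setting is stated for the counting.

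The receptor genes did not pass the test. TGFBR2, which encodes the type II receptor that binds the ligand, stood at 123, 131 and 125 CPM with lncSLCC1 siRNA, against 109, 112 and 129 CPM with control siRNA. Control replicate 3 lay among the lncSLCC1 siRNA libraries, so the groups overlapped. The log2 fold change was 0.12 (SE 0.087, 95% interval -0.08 to 0.31, edgeR adjusted p = 0.388).

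TGFBR1, which encodes the type I receptor kinase, had the largest coefficient of variation of the 9 among controls. It stood at 32.2, 34.6 and 30.6 CPM with lncSLCC1 siRNA, against 20.2, 30.7 and 38.2 CPM with control siRNA. The lncSLCC1 siRNA libraries therefore lay inside the range of the controls. That coefficient was 6.05% after lncSLCC1 siRNA and 30.5% after control siRNA. The log2 fold change of 0.13 (SE 0.192, 95% interval -0.30 to 0.55, edgeR adjusted p = 0.686) turned to -0.09 when control replicate 1 was left out and to -0.03 under offsets for GC content and length. Reads of TGFBR2 outnumbered those of TGFBR1 by 3.83, 3.79 and 4.09 to 1 with lncSLCC1 siRNA and by 5.41, 3.65 and 3.36 to 1 with control siRNA, so this ratio overlapped between the groups.

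Among the SMADs that carry the signal, SMAD3 was lower and its partners did not pass the test. SMAD3, a transcription factor that binds DNA directly, stood at 75.3, 68.8 and 70.9 CPM with lncSLCC1 siRNA, against 96.6, 93.9 and 101.9 CPM with control siRNA. The highest lncSLCC1 siRNA library was below the lowest control. The mean was 71.7 ± 3.31 CPM after lncSLCC1 siRNA and 97.5 ± 4.09 CPM after control siRNA (SD, n = 3 each), 73.6% of control. SMAD3 fell by 0.44 on the log2 scale (SE 0.082, 95% interval -0.62 to -0.26, edgeR adjusted p = 0.00876) and was the 525th gene of 15242 by p. The call was lost without lncSLCC1 siRNA replicate 2 (log2 fold change -0.41, edgeR adjusted p = 0.0745) and without replicate 3 (-0.44, 0.0676).

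SMAD2, the close relative of SMAD3 that is phosphorylated by the same receptors, stood at 81.3, 80 and 81.2 CPM with lncSLCC1 siRNA, against 72.3, 85.04 and 97.9 CPM with control siRNA. The lncSLCC1 siRNA libraries lay close together inside the range of the controls. Its log2 fold change was -0.07 (SE 0.109, 95% interval -0.32 to 0.17, edgeR adjusted p = 0.675). It was called lower without control replicate 1 (-0.18, edgeR adjusted p = 0.045) and with GC content and length offsets (-0.36, 0.00157), where it had been given its longest annotated transcript of 34526 bases.

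SMAD4, the shared partner of all receptor-regulated SMADs, stood at 45.6, 48.9 and 45.4 CPM with lncSLCC1 siRNA, against 41.4, 49.9 and 51.4 CPM with control siRNA. The groups overlapped, and the log2 fold change was -0.03 (SE 0.105, 95% interval -0.26 to 0.20, edgeR adjusted p = 0.877). With GC content and length offsets it was called lower (-0.20, adjusted p = 0.036). The ratio of SMAD3 to SMAD2 reads does not depend on library scaling, though it can move with GC content and transcript length. It was 0.927, 0.861 and 0.874 with lncSLCC1 siRNA, against 1.33, 1.1 and 1.04 with control siRNA. SMAD2 reads thus outnumbered SMAD3 reads in all 3 lncSLCC1 siRNA libraries, while SMAD3 reads outnumbered SMAD2 reads in all 3 controls. Read counts grow with transcript length, so they do not say which gene had more transcripts. Per kilobase of transcript, by the median lengths used below, SMAD3 averaged 46.9 CPM and SMAD2 7.74 CPM after lncSLCC1 siRNA. After control siRNA SMAD3 averaged 63.7 and SMAD2 8.15 CPM per kilobase, so SMAD3 stood above SMAD2 in both groups. The highest ratio, 1.33, was that of control replicate 1. With GC content and length offsets the log2 fold changes were -0.50 for SMAD3 and -0.36 for SMAD2, against -0.44 and -0.07 in the main fit. The difference of this ratio was not tested.

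**Figure D2:**
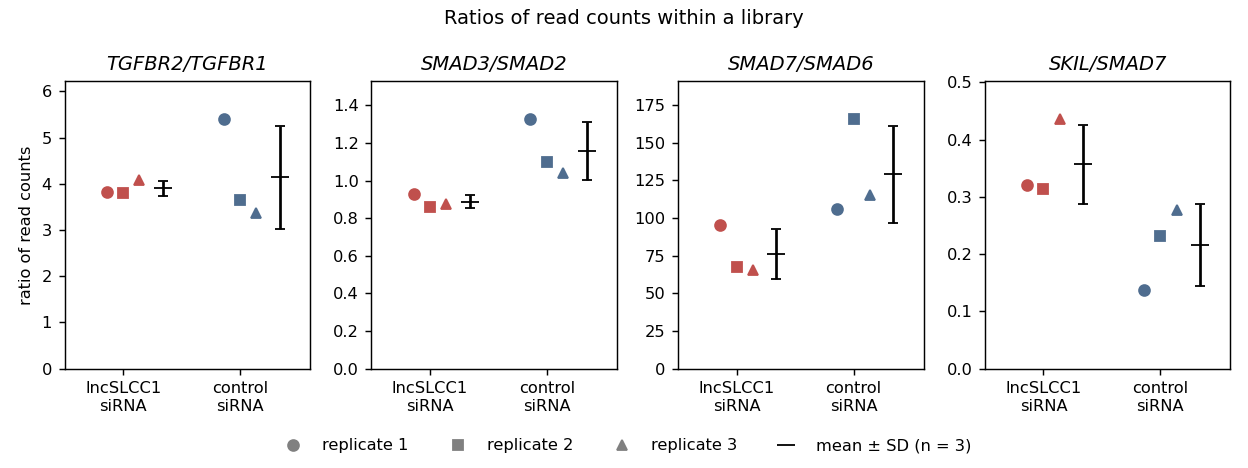
Ratios of read counts of paired genes within each library, with lncSLCC1 siRNA in red on the left, control siRNA in blue on the right, a symbol per replicate and the mean ± SD of 3 libraries in black. SMAD3/SMAD2 lies at 0.861 to 0.927 after lncSLCC1 siRNA and at 1.04 to 1.33 after control siRNA, and TGFBR2/TGFBR1 overlaps.

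The genes of the negative feedback arm were SMAD6, SMAD7 and SKIL. SMAD7, whose product blocks the type I receptor and brings ubiquitin ligases to it, stood at 56.8, 60.5 and 51.1 CPM with lncSLCC1 siRNA, against 75.2, 64.5 and 59.8 CPM with control siRNA. The groups overlapped only through lncSLCC1 siRNA replicate 2 and control replicate 3. The log2 fold change was -0.24 (SE 0.11, 95% interval -0.49 to 0.002, edgeR adjusted p = 0.16), and it was called with GC content and length offsets (-0.25, adjusted p = 0.0194).

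SKIL encodes SnoN, a repressor that binds SMAD complexes and is degraded when the signal starts. It stood at 18.2, 18.99 and 22.3 CPM with lncSLCC1 siRNA, against 10.3, 14.9 and 16.6 CPM with control siRNA. All lncSLCC1 siRNA libraries were above all controls, and control replicate 1 was the lowest of the 6. The log2 fold change was 0.50 (SE 0.171, 95% interval 0.12 to 0.89), the largest of the 9 in size, and the adjusted p of 0.0771 by edgeR missed the threshold. It passed in 5 of 15 alternatives: with no low-count filter (adjusted p = 0.00694), with the replicate block (0.0306), with GC content and length offsets (0.0487) and without control replicate 1 (0.0296) or 3 (0.0235). Without control replicate 1 its log2 fold change was 0.32. SKIL reads per SMAD7 read were 0.321, 0.314 and 0.437 with lncSLCC1 siRNA, against 0.137, 0.232 and 0.278 with control siRNA, a difference that was not tested.

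SMAD6, the BMP-branch inhibitor, had few reads. It had 9, 14 and 10 reads with lncSLCC1 siRNA, against 10, 6 and 8 reads with control siRNA. The groups overlapped, and the 95% interval of the fold ran from 0.802 to 2.46 (log2 fold change 0.49, SE 0.363, edgeR adjusted p = 0.385). The ratio of SMAD7 to SMAD6 reads, 65.7 to 95.2 after lncSLCC1 siRNA and 106 to 166 after control siRNA, rests on those few SMAD6 reads.

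**Figure D3:**
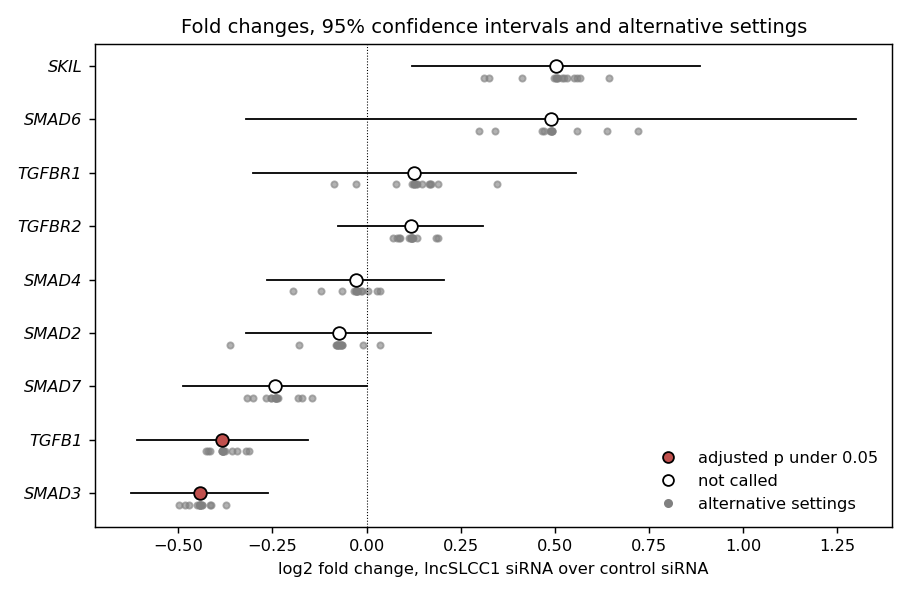
Log2 fold changes of lncSLCC1 siRNA over control siRNA for the 9 genes (large points, red where the adjusted p was under 0.05) with 95% intervals (lines), and the same values under the alternative settings (small grey points). The intervals of SMAD3 and TGFB1 lie below 0 and that of SKIL above 0, while TGFBR1, SMAD2 and SMAD4 have alternatives on both sides of 0.

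Levels were compared between genes only per kilobase of transcript, with the median length of each gene's protein-coding transcripts in GENCODE's basic set, a length chosen after the unusually long SMAD2 transcript was seen. On that scale SMAD3 averaged 46.9 ± 2.16 CPM per kilobase after lncSLCC1 siRNA and 63.7 ± 2.67 after control siRNA, SMAD7 43.9 ± 3.7 and 52.04 ± 6.16, and TGFBR2 27.4 ± 0.852 and 25.3 ± 2.28 (SD, n = 3 each). TGFB1 followed at 9.93 ± 0.548 CPM per kilobase after lncSLCC1 siRNA and 12.95 ± 0.985 after control siRNA. SMAD2, SMAD4, TGFBR1 and SKIL averaged 5.49 to 7.74 CPM per kilobase after lncSLCC1 siRNA and 4.801 to 8.15 after control siRNA, and SMAD6 0.197 and 0.141. SMAD3 and SMAD7 had ranges that overlapped after lncSLCC1 siRNA and stood apart after control siRNA. SMAD4, TGFBR1 and SKIL followed each other in the control order with overlapping ranges, as did SMAD2 and SKIL, and TGFBR1 and SMAD4, in the lncSLCC1 siRNA order. The order of the leading genes depends on the length used: per kilobase of the longest transcript TGFBR2 led, at 27.4 after lncSLCC1 siRNA and 25.2 after control siRNA, ahead of SMAD3 at 11.5 and 15.6 and SMAD7 at 12.7 and 15.02.

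The place of control replicate 1 within its group differed among the 9 genes and is given beside the GC content of each gene's longest transcript. Whether place and GC content go together was not tested. Within the control group, replicate 1 was the highest library for TGFB1, SMAD6 and SMAD7, whose longest transcripts had GC contents of 63.4%, 58.8% and 58.7%. It was the lowest for TGFBR1, TGFBR2, SMAD2, SMAD4 and SKIL, with GC contents of 39.0%, 47.4%, 40.2%, 41.1% and 33.4%. SMAD3, at 50.4%, had control replicate 2 as its lowest library and control replicate 3 as its highest. The place of SMAD6 rests on 10, 6 and 8 reads in control replicates 1, 2 and 3. The coefficient of variation was larger among controls than among lncSLCC1 siRNA libraries for 8 of the 9 genes, the exception being SMAD3, and the SD of log2 CPM was larger among controls for 78.5% of all tested genes. Ribosomal protein genes took 3.51% to 3.68% of gene reads in the lncSLCC1 siRNA libraries, against 4.85% in control replicate 1 and 4.1% and 3.61% in control replicates 2 and 3. Reads in no feature made up 7.09% to 7.58% in the lncSLCC1 siRNA libraries, against 5.42% in control replicate 1 and 6.27% and 7.18% in control replicates 2 and 3. The part of these differences in the results was not tested beyond the values given without that library and with GC content and length offsets.

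Promoters are shown for the pair of genes that fell, SMAD3 and TGFB1, and for the feedback genes SMAD6, SMAD7 and SKIL, which are known in other systems to be switched on by SMADs. The 250 bases before the most upstream annotated start were taken from RefSeq (GRCh38.p14), whereas the deposited counts rest on hg19 and GRCh37 per the submitters' processing notes. They were searched on both strands for CAGAC, the core of the SMAD binding element, and for its palindromic form GTCTAGAC, which contains neither CAGAC nor GTCTG. Matches are in capitals, and sequences read 5′ to 3′ on the gene's strand.
SMAD3, chr15:67065352-67065601, plus strand: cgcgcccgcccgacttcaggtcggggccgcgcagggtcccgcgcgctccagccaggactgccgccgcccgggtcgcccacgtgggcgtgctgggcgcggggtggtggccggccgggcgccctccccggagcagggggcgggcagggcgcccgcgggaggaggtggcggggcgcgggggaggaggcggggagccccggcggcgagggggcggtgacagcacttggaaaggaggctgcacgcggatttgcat
TGFB1, chr19:41353923-41354172, minus strand: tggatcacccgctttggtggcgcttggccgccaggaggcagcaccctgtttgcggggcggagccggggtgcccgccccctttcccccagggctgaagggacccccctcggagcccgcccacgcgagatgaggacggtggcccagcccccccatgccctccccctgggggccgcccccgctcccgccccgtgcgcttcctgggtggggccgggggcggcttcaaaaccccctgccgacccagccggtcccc
SMAD6, chr15:66701986-66702235, plus strand: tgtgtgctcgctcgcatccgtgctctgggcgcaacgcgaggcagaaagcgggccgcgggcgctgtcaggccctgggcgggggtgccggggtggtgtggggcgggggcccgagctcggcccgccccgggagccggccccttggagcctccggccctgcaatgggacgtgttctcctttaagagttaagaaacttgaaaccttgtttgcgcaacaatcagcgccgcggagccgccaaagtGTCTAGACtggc
SMAD7, chr18:48950966-48951215, minus strand: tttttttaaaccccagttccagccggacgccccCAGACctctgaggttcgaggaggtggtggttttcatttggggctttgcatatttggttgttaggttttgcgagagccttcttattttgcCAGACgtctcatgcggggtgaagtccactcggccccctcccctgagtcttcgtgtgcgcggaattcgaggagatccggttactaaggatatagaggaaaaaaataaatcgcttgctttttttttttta
SKIL, chr3:170357465-170357714, plus strand: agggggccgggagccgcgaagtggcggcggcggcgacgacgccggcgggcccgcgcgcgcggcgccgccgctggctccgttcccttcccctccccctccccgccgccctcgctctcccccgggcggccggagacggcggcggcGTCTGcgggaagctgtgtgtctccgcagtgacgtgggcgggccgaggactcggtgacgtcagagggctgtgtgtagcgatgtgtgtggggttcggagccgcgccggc

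CAGAC was found 2 times in the SMAD7 window and 1 time in that of SKIL, and 0 times in those of the other 7 genes, against 38.0% of 35116 promoters with at least 1 match. GTCTAGAC was found in SMAD6 alone among the 9, against 0.182% of promoters. SMAD3 and TGFB1, the genes that fell, lacked both of these words, as did TGFBR1, TGFBR2, SMAD2 and SMAD4, which were not called. The SMAD3 and TGFB1 windows had GC contents of 80.8% and 76.8%. GGCGC, a GC-rich word also bound by SMADs, was found 7 times in the SMAD3 window, 5 times in that of SMAD2, 3 times each in those of SMAD4, SMAD6 and SKIL, 1 time in that of TGFB1 and 0 times in those of SMAD7, TGFBR1 and TGFBR2, against 44.5% of promoters with at least 1 match. A match is a description of letters in this window only. Several starts were annotated for TGFBR1 (8), SMAD3 (5), SMAD7 (3), TGFBR2 (2) and SMAD2 (2). The bases before their other starts were not searched, so a word missing here may stand there.

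Other genes of the pathway were grouped in 6 lists of 118 genes, of which 97 were tested; ITGB6, BAMBI and PMEPA1 each stand in more than 1 list and are counted once in these totals. In all, 3 were higher and 14 lower, or 3.09% and 14.4% of those tested, against 6.46% and 7.39% of all tested genes. These counts moved with single libraries: 11 higher and 30 lower without control replicate 1, against 5 to 6 lower without control replicate 2 or any lncSLCC1 siRNA library. Counts over all tested genes moved as well, to 2112 higher and 2431 lower of 15646 without control replicate 1, and to 244 to 352 lower without control replicate 2 or any lncSLCC1 siRNA library. The lists were chosen with earlier results of these data known, so the shares of calls in them are descriptions only.

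Among 17 tested genes for ligands and their storage and release, 2 were higher and 1 lower, with a median log2 fold change of -0.03. ITGB6, the beta chain of an integrin that frees TGF-beta from its latent complex, rose to 11.7, 10.8 and 11.5 CPM with lncSLCC1 siRNA, against 5.83, 6.24 and 5.91 CPM with control siRNA (log2 fold change 0.92, SE 0.123, edgeR adjusted p = 0.00209). All 3 lncSLCC1 siRNA libraries lay above all 3 controls. Its partner ITGAV, named after its value was seen, did not pass (-0.55, adjusted p = 0.109). LTBP1, which tethers latent TGF-beta to the matrix, rose to 38.3 ± 2.47 CPM after lncSLCC1 siRNA, against 24.7 ± 2.14 CPM after control siRNA (SD, n = 3 each; 0.63 on the log2 scale, SE 0.106, edgeR adjusted p = 0.00596). Its call was lost without lncSLCC1 siRNA replicate 2 (adjusted p = 0.0525). GDF15, a stress-responsive member of the ligand family, fell by 0.45 (SE 0.129, adjusted p = 0.0467), though its groups overlapped, it was not called by limma-voom (0.057) or with library totals (0.0717), and the call was lost without control replicate 2 or any lncSLCC1 siRNA library (0.0884 to 0.179). BMP2, at -0.39 (SE 0.128, adjusted p = 0.0692), did not pass, nor did the other TGF-beta ligands TGFB2 (-0.03) and TGFB3 (0.16).

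None of the 9 other receptors of the superfamily tested passed by edgeR, and 3 had an unadjusted p under 0.05. Of these, BMPR2, the type II BMP receptor, stood at 43.7, 45.5 and 46.8 CPM with lncSLCC1 siRNA, against 20.9, 33.5 and 39.1 CPM with control siRNA (log2 fold change 0.54, SE 0.187, edgeR adjusted p = 0.081). As with TGFBR1, control replicate 1 was its lowest library. It was called in 6 of 15 alternatives: by DESeq2 (adjusted p = 0.0411), with no low-count filter (0.000395), the replicate block (0.0274) or GC content and length offsets (0.00481), and without control replicate 1 (log2 fold change 0.32, 0.00492) or 3 (0.73, 0.0141). ENG, BMPR1B and ACVR1B had log2 fold changes of 0.63, 0.40 and -0.22 (adjusted p = 0.134, 0.139 and 0.209). ENG had few reads, 22 to 39 per library after lncSLCC1 siRNA and 15 to 25 after control siRNA. The 3 SMADs outside the set, of the BMP branch, also had 0 calls by edgeR and 0 unadjusted p-values under 0.05, with log2 fold changes of 0.11 for SMAD1, -0.15 for SMAD5 and 0.29 for SMAD9. SMAD9 averaged only 0.789 CPM over all libraries. SMAD5 was called lower without control replicate 1 (-0.36, adjusted p = 0.000538).

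Of 13 tested SMAD cofactors and repressors, 0 were higher and 1 was lower. E2F4, a repressive E2F that works with SMAD3 at the MYC promoter, fell to 119 ± 4.03 CPM after lncSLCC1 siRNA, against 176 ± 17.2 CPM after control siRNA (SD, n = 3 each; -0.56 on the log2 scale, SE 0.089, edgeR adjusted p = 0.00467). SKI, the relative of SKIL, had a log2 fold change of -0.29 (SE 0.087, adjusted p = 0.0523), opposite in sign to that of SKIL, and neither passed. E2F5 and TGIF1 were at -0.48 and -0.22 (adjusted p = 0.0703 and 0.0879). Of 22 genes that turn over or damp the signal, 2 were lower and 0 higher. PPP1R15A, also known as GADD34, which brings a phosphatase to the type I receptor together with SMAD7, fell by 0.58 (SE 0.121, adjusted p = 0.0152), and the deubiquitinase gene USP11 by 0.34 (SE 0.099, adjusted p = 0.0473). Without control replicate 2 or any lncSLCC1 siRNA library, both calls were lost (adjusted p = 0.0587 to 0.0821 for PPP1R15A and 0.093 to 0.167 for USP11), and USP11 also lost it by limma-voom (0.0513), with the replicate block (0.0628) and with library totals (0.0672). FKBP1A, which holds the type I receptor inactive, and RNF111, a ubiquitin ligase for SnoN and SMAD7, did not pass (-0.26 and 0.38, adjusted p = 0.0657 and 0.12).

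Target genes of TGF-beta and BMP outside the 9 made up the list with the most calls: of 36 tested, 10 were lower and 2 higher, or 27.8% and 5.56%, against 7.39% lower and 6.46% higher of all tested genes. The list's median log2 fold change was -0.23, and that of all tested genes was 0.0072. This list was chosen with earlier results of these data known, so its share of calls describes these genes and does not test the pathway. Its genes were not split by whether the signal raises or lowers them. Neither the share nor the median therefore gives a direction of signalling. The lower genes included CCND1, the cyclin D1 gene, at -0.74 (SE 0.074, edgeR adjusted p = 0.000457), and MYC at -0.58 (SE 0.084, adjusted p = 0.00305), both of which also answer to other growth signals. CDKN1A, which encodes the cell-cycle inhibitor p21 and is induced by TGF-beta, moved the same way as these growth genes. Its values were 10.4, 11.6 and 10.5 CPM with lncSLCC1 siRNA, against 20.96, 18.4 and 16.4 CPM with control siRNA (log2 fold change -0.78, SE 0.128, edgeR adjusted p = 0.00549). The TGF-beta-inducible transcription factor genes KLF10, KLF11 and JUNB fell by 0.45, 0.66 and 0.60 (SE 0.078, 0.131 and 0.116, adjusted p = 0.00697, 0.0119 and 0.0108 by edgeR). ID2, a BMP target, fell by 0.36 (SE 0.074, adjusted p = 0.0131), whereas ID1 and ID3 were at 0.17 and 0.18 and did not pass (adjusted p = 0.377 and 0.306). HMGA2, a chromatin protein gene, and SPHK1, a sphingosine kinase gene, fell by 0.64 and 0.85 (adjusted p = 0.0166 and 0.034). SPHK1 had few reads, 15 to 18 per library after lncSLCC1 siRNA and 29 to 34 after control siRNA. Leaving out 1 library ended several of these calls: KLF10 with any lncSLCC1 siRNA library out (0.0523 to 0.0566), KLF11 with lncSLCC1 siRNA replicate 1 or 3 or control replicate 2 out (0.0625 to 0.0719), and JUNB with lncSLCC1 siRNA replicate 2 or 3 or control replicate 2 out (0.0549 to 0.0719). ID2, HMGA2 and SPHK1 lost theirs with any lncSLCC1 siRNA library or control replicate 2 out (0.068 to 0.0983, 0.0668 to 0.0895 and 0.107 to 0.142), and SPHK1 also by DESeq2 (0.0958) and with the replicate block (0.0535). CCND1, MYC and CDKN1A were called in all 15 alternatives. Several targets often used as readouts of the signal did not pass: CTGF, TGFBI and PMEPA1 had log2 fold changes of -0.24, -0.23 and -0.25 (adjusted p = 0.205, 0.0861 and 0.256). KLF10, KLF11, JUNB, CDKN1A, ID1, ID2, ID3, HMGA2, SPHK1, CTGF, TGFBI, PMEPA1, COL4A1, TGFB2, TGFB3 and SMAD9 were named after their values were seen.

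The collagen IV genes COL4A1 and COL4A2, which encode chains of the same basement membrane trimer, moved in opposite directions. COL4A1 rose to 10.01, 11.98 and 13.8 CPM with lncSLCC1 siRNA, against 4.76, 6.56 and 6.88 CPM with control siRNA (log2 fold change 0.97, SE 0.177, edgeR adjusted p = 0.00837). COL4A2 fell to 18.2, 16.8 and 19.1 CPM with lncSLCC1 siRNA, against 49.5, 44.95 and 37.9 CPM with control siRNA (log2 fold change -1.29, SE 0.123, adjusted p = 0.000364). Both kept their direction in all 15 alternatives, and COL4A1 was no longer called when lncSLCC1 siRNA replicate 3 was left out (adjusted p = 0.0545). The number of target genes called lower was 15 without control replicate 1 and 4 to 5 without control replicate 2 or any lncSLCC1 siRNA library.

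**Figure D4:**
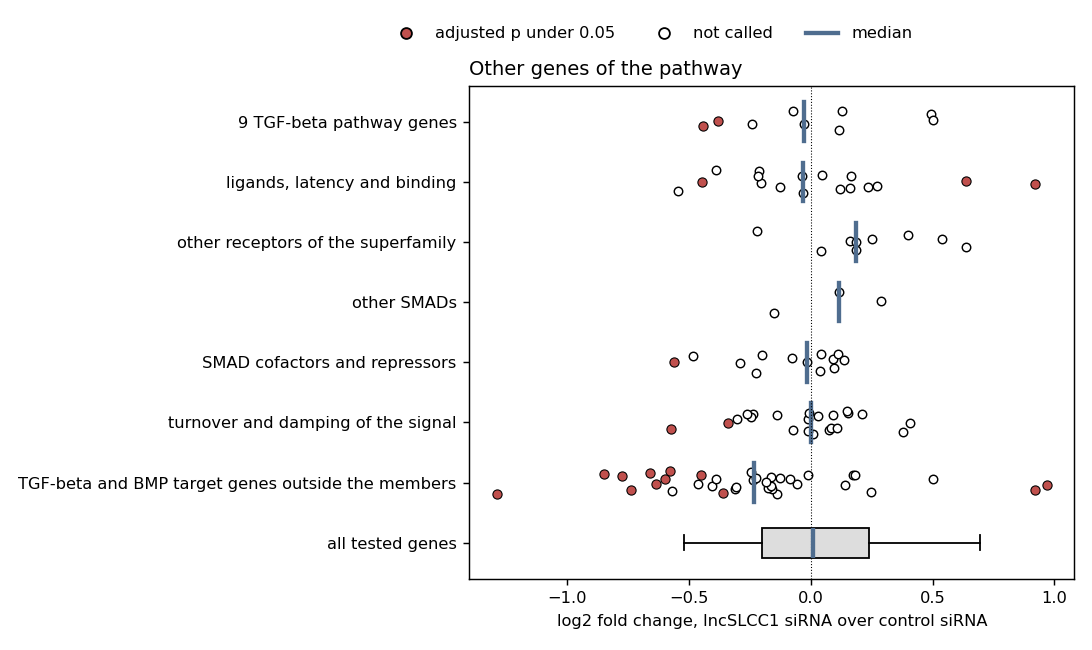
Log2 fold changes of lncSLCC1 siRNA over control siRNA for the 9 genes and for 6 lists of other pathway genes, a point per tested gene, red where the adjusted p was under 0.05, with list medians as blue bars. The box holds the middle of all 15242 tested genes with its median and with whiskers at the 5th and 95th percentiles, and the target genes, with a median of -0.23, hold 10 of the 14 lower genes.

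Genes whose levels followed the pair that fell most closely were ranked over the 6 libraries by Pearson's r of log2 CPM among 10513 genes of at least 5 CPM. Highest with SMAD3 were CDKAL1 (r = 0.996), MIS18A (0.995) and TMEM248 (0.995). Highest with TGFB1 were ZNF276 (r = 0.998), HSD11B2 (0.996) and SAAL1 (0.996). These values describe 6 libraries in which the step between the groups is shared by many genes.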

How the data were processed

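Total RNA of DLD-1 cells was sequenced in 3 libraries per group, and the authors deposited, for every library, a table with the raw count of reads at each gene symbol. The submitters' processing notes name TopHat2 (2.0.11), HTSeq, hg19 and GRCh37; the sources used here give no strand setting, annotation release, siRNA sequence, dose or time. HTSeq's summary lines, left out of library sizes and tests, held 5.42% to 7.58% of reads with no feature, 8.83% to 10.1% ambiguous and 12.8% to 13.8% not uniquely aligned. The 9 genes and the pathway lists were chosen with earlier results of these data known.

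Counts were tested with edgeR 4.0.16 (R 4.3.3): TMM, the default expression filter, quasi-likelihood F test, no covariate, calls at an adjusted p under 0.05. CPM values use TMM library sizes, and standard errors were derived from log2 fold change and F. The biological coefficient of variation was 10.9%. On simulated counts for this comparison over 15030 genes, 63% of genes changed 1.5-fold and 92% of genes changed 2-fold were called. The simulation gave every gene and both groups the same dispersion, whereas the real controls were the more scattered group. These shares hold for that setting only. Named were the 9 genes, the targeted RNA, up to 4 genes with the smallest p per list at a mean of at least 1 CPM, and the 3 genes most like each of 2 members. Alternatives were DESeq2 1.42.0, limma-voom (limma 3.58.1), robust empirical Bayes, DESeq2 size factors, library totals, other filters, a threshold of 0.01, GC content and length offsets (GENCODE release 29, longest transcript, 89.4% of tested genes), the replicate number as a block, and each library left out. Sequences came from RefSeq and GENCODE, on GRCh38.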

Additional observations from a re-analysis of the deposited data

How the results depend on the processing

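Of 133 values of the 9 genes under alternatives, 111 kept direction and side of the threshold, and of 435 values of 29 other named genes 366 did. Signs turned for TGFBR1 with GC content and length offsets (-0.027), for SMAD4 with library totals (0.037), and with a library left out for TGFBR1 (-0.086 to 0.346), SMAD2 (-0.18 to 0.035), SMAD4 (-0.12 to 0.027) and SMAD5 (-0.36 to 0.031); the cause was not tested. Genes of the 9 called lower numbered 1 with library totals, 5 with GC content and length offsets and 1 at a threshold of 0.01, and 0 to 3 with a library left out. Genes of the 9 called higher numbered 1 with no low-count filter, with the replicate block and with GC content and length offsets, and 0 to 1 with a library left out. SMAD6 had no adjusted p by DESeq2 and was not tested at a mean CPM of at least 1.

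Over all tested genes, 1600 were higher and 1672 lower with no low-count filter, where 30025 genes were tested, 1886 higher and 2781 lower with GC content and length offsets, and 251 and 327 at a threshold of 0.01, where fewer calls follow from the threshold itself. With a library left out the counts ran from 213 to 2112 higher and from 244 to 2431 lower. Calls were 46.6% higher with TMM and 63.7% higher with library totals, which put the median gene at a log2 fold change of 0.0759. In the pathway lists 7 genes were higher with no low-count filter, 10 higher and 32 lower with GC content and length offsets and 6 lower at 0.01; with a library left out 2 to 11 were higher and 5 to 30 lower. Same-numbered libraries did not deviate together (r = 0.094, 0.001 and -0.016 for replicates 1, 2 and 3). The lncSLCC1 siRNA libraries differed little from each other (chi-square per gene 1.79 to 1.902), which left little deviation to share. These values therefore cannot show whether the numbers pair the samples. With the replicate block 993 genes were higher and 1059 lower. RP11-400N13.2 stayed called in each alternative run. SMAD6 had the fewest reads of the 9, 6 to 14 reads per library.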
